A study of Mus musculus with 16 samples.

Results

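The 9 genes described here encode histone lysine demethylases of the KDM1, KDM2, KDM3 and KDM5 families: Kdm1a, Kdm1b, Kdm2a, Kdm2b, Kdm3a, Kdm3b, Jmjd1c, Kdm5a and Kdm5b. They were taken by Ensembl identifier from a gene table of 56941 genes, and all 9 were among the 31057 genes that passed the filter on low counts. None of their products is a protein the study expressed. The comparison asks whether RNA of these other demethylase genes on chromatin differed with the demethylase expressed or with the loss of its disordered region.

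The RNA came from the chromatin fraction of E14TG2a cells, a mouse embryonic stem cell line, grown with the cytokine LIF at 1000 U per ml, the MEK inhibitor PD0325901 at 1 µM and the GSK3 inhibitor CHIR99021 at 3 µM. There were 8 groups of 2 libraries, named KDM4A delIDR, KDM4A FL, KDM4B delIDR, KDM4B FL, KDM6A delIDR, KDM6A FL, KDM6B delIDR and KDM6B FL. All 8 groups ectopically expressed a demethylase, either without its intrinsically disordered region (delIDR, also written del-cIDR in the titles) or full-length (FL), so each FL group is a control that carries a construct too. KDM4A and KDM4B remove methyl groups from H3K9 and H3K36, and KDM6A and KDM6B from H3K27. The labels give neither the promoter of the constructs, nor whether a line was 1 clone, nor if a group's paired libraries represent independent cultures. P-values therefore measure the spread between libraries, which may be technical.

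Histone lysine demethylases fall into 2 chemical classes. The KDM1 enzymes use FAD and act on H3K4 with few methyl groups, and the JmjC enzymes, which include the KDM2, KDM3 and KDM5 families, use iron and 2-oxoglutarate. KDM2 proteins bind unmethylated CpG through a CXXC zinc finger and act on H3K36, KDM3 proteins act on H3K9, and KDM5 proteins act on the more highly methylated H3K4 found at promoters. In mouse embryonic stem cells KDM2B brings a variant Polycomb complex to CpG islands, and KDM1A and KDM5B are known from work on self-renewal and differentiation.

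Libraries held 32739117 to 54890756 gene reads, each read of a pair being counted. Levels are given as CPM, which are counts scaled to the size of the library, after TMM scaling. Reads of ERCC control RNAs made up 0.58% to 1.55% of gene reads. Reads of repeat copies inside introns, used below as a second readout, came to 26.1 to 62.2 per 100 gene reads. The summed level of 8 embryonic stem cell markers was 1790 to 2692 CPM per library, against 7.39 to 31.2 CPM for 6 primitive endoderm markers, 20.8 to 81.7 CPM for 6 trophectoderm markers, 8.90 to 32.1 CPM for 6 fibroblast markers and 24.1 to 39.1 CPM for 5 neural markers. Cdx2, Foxa2 and Col3a1 were at 0 in at least 1 library. Of the 4 genes whose proteins were expressed, Kdm6a had 415 to 441 CPM in the 4 KDM6A libraries and 95.7 to 156 CPM in the other 12. The counts of Kdm4a, Kdm4b and Kdm6b did not set all libraries of their own constructs apart: Kdm4b, for example, had 85.4 to 103 CPM with the KDM4B constructs and 74.9 to 103 CPM in the other 12 libraries. Kdm4a had 300 and 291 CPM in KDM4A delIDR libraries, against 217 and 205 CPM in KDM4A FL libraries. Kdm6b had 93.0 and 96.3 CPM in KDM6B delIDR libraries, against 78.0 and 85.2 CPM in KDM6B FL libraries. Whether delIDR and FL constructs were expressed at the same level was not tested.

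All 9 genes were well expressed in every library. On a scale that also takes out the length of the exons (RPKM, mean over the 16 libraries), Kdm5b at 62.5 and Kdm3a at 57.9 were the highest, Kdm1a followed at 37.0, Kdm5a at 27.8 and Jmjd1c at 20.6, and Kdm3b, Kdm2b, Kdm2a and Kdm1b lay between 18.5 and 13.6. Their levels moved within a narrow range across the 8 groups. The ratio of the highest to the lowest group mean was 1.93 for Kdm2a, 1.85 for Kdm5b, 1.61 for Kdm1b and for Kdm3a, and 1.18 to 1.38 for the other 5 genes. Within a group the higher library was at most 1.09 times the lower one for any member. An F test for any difference among the 8 groups passed for all 9 genes (adjusted p at most 1.6e-06), where 75.8% of all genes tested passed it.

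**Figure D1:**
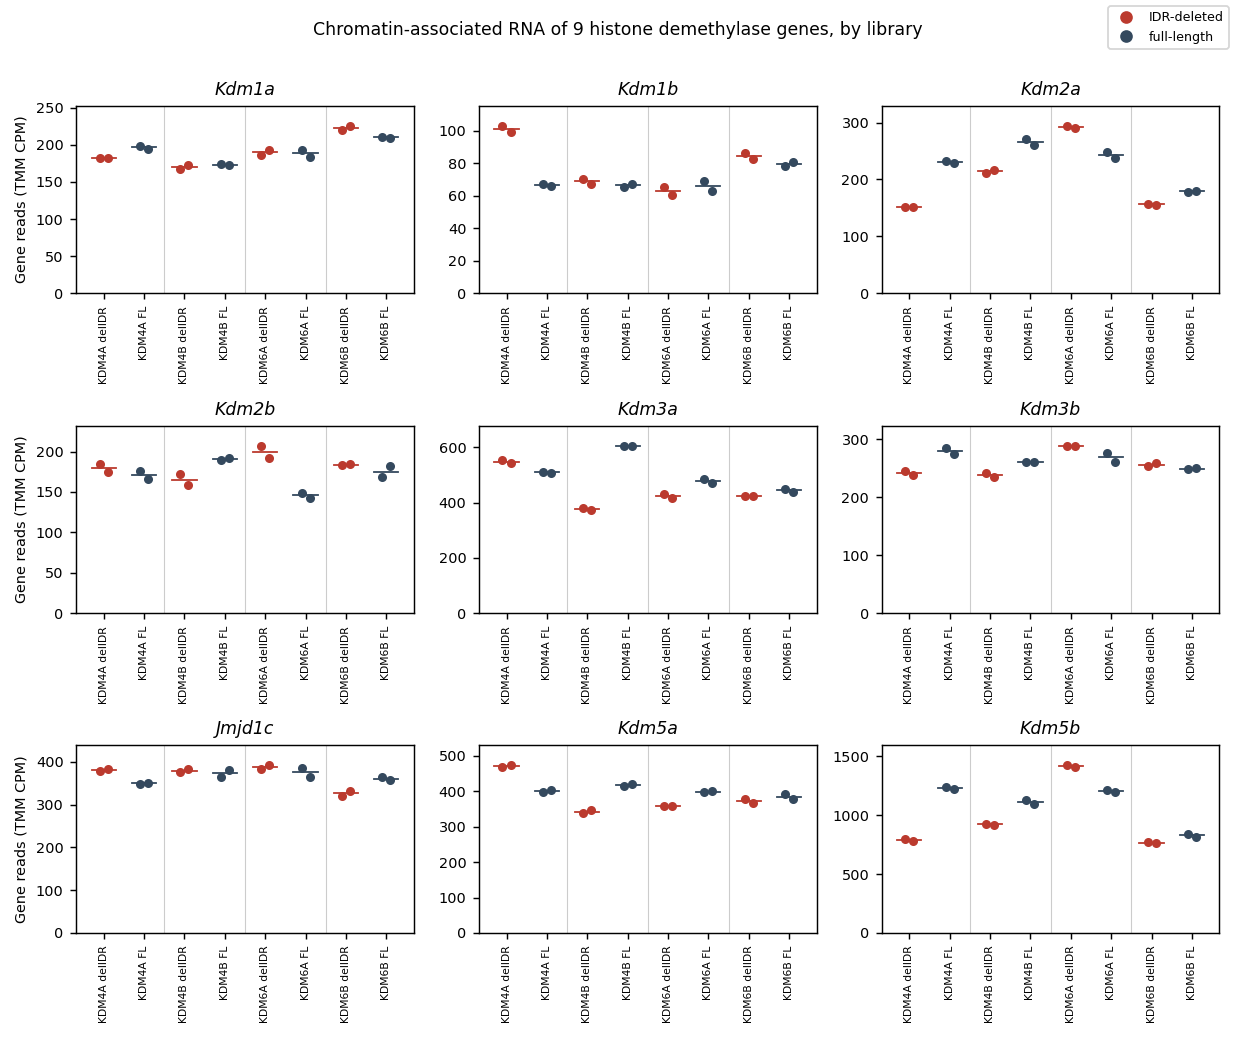
Gene reads of the 9 demethylase genes in CPM after TMM scaling, on linear axes that start at 0, for the 8 groups with the IDR-deleted group left of its full-length group. Points are libraries and bars their mean. Kdm2a and Kdm5b have their lowest levels in KDM4A delIDR, KDM6B delIDR and KDM6B FL and their highest in KDM6A delIDR, where Kdm5b reaches 1418 CPM on average.

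In the KDM4A comparison, delIDR against FL, 8 of the 9 members passed the test (adjusted p under 0.05), 4 higher and 4 lower, where 50.5% of all genes passed (24.6% higher and 25.9% lower). For KDM4B 6 of 9 passed, all lower, against 36.2% of all genes (18.6% higher and 17.6% lower). For KDM6A 5 of 9 passed, 3 higher and 2 lower, against 17% of all genes (8.3% higher and 8.65% lower). For KDM6B 3 of 9 passed, all lower, against 20.6% of all genes (9.89% higher and 10.7% lower). The sizes were modest. The median absolute log2 fold change of the members was 0.21 for KDM4A, 0.20 for KDM4B, 0.15 for KDM6A and 0.08 for KDM6B, and over all genes tested it was 0.55, 0.36, 0.23 and 0.27 in the same order. The genes tested were kept down to a minimum count of 10, and no set matched to the members in expression level was compared. The members therefore cannot be said to have changed less, or passed more often, than genes of like expression. Some of the numbers of members and genes called rest on single libraries. Without KDM4A FL replicate 1, 5 members passed in the KDM4A comparison. Without KDM6A FL replicate 1, 3484 genes in all were called for KDM6A, against 5265 with it. For KDM6B 4125, 4242 and 4078 genes were called without delIDR replicate 1, delIDR replicate 2 and FL replicate 1, against 6406 with all libraries.

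The scaling set the sign of several changes. The labels do not mention the ERCC RNAs, so the step and the amount at which they were added are not known. Values scaled to them therefore cannot be read as absolute amounts of RNA. When libraries were scaled to ERCC reads, the median log2 fold change of all genes moved to -0.70 for KDM4A, -0.18 for KDM4B, -0.21 for KDM6A and -0.38 for KDM6B, against -0.05, 0.01, 0.00 and 0.00 with TMM. With ERCC scaling no member was higher for KDM4A, KDM4B or KDM6B, and 8, 8 and 9 members were lower. Of all genes 4.71%, 9.26% and 2.13% were higher and 57.2%, 27.6% and 42.8% lower in those 3 comparisons. For KDM6A 1 member was higher and 5 were lower, against 1.43% and 23% of all genes. TMM centres each comparison on most genes, so the values below are relative to these unless ERCC is named, and where ERCC scaling turned the sign of a printed value, the ERCC value stands beside it.

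Of the KDM1 genes, Kdm1b changed with KDM4A and Kdm1a stayed within a narrow range. Kdm1b (chromosome 13, 47196975 to 47238755 on GRCm39, plus strand) encodes LSD2, which acts on H3K4 within transcribed genes and is needed for maternal imprints in mouse oocytes. It had 103 and 99.2 CPM in KDM4A delIDR libraries, against 67.3 and 66.2 CPM in KDM4A FL libraries. The 2 delIDR libraries stood above the other 14, of which the highest, in KDM6B delIDR, had 86.4 CPM. Kdm1b rose by 0.60 ± 0.05 on the log2 scale (SE, adjusted p = 3.4e-12), and with ERCC scaling the value turned to -0.06 (adjusted p = 0.509), which is 0.64 above the median of all genes on that scale. The KDM4B, KDM6A and KDM6B values were 0.05, -0.07 and 0.08 and did not pass, and with ERCC scaling they were -0.13, -0.29 and -0.29 (adjusted p = 0.134, 0.001 and 3.0e-04). The KDM4A effect exceeded the KDM4B effect by 0.54 ± 0.08 (adjusted p = 3.4e-07), and by 0.08 with ERCC scaling (adjusted p = 0.569). Kdm1b overlaps Tpmt and Dek, which lie on the other strand, and strand was ignored in counting.

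Kdm1a (chromosome 4, 136277851 to 136330034, minus strand) encodes LSD1, the H3K4 demethylase of the CoREST complex. It varied little, at 167 to 225 CPM over the 16 libraries. Its highest libraries were those of KDM6B delIDR at 220 and 225 CPM, followed by KDM6B FL at 211 and 209 CPM. In the KDM4A comparison it had 182 and 183 CPM in delIDR libraries and 199 and 195 CPM in FL libraries. That fall of 0.11 on the log2 scale (SE 0.04, adjusted p = 0.0173) no longer passed without delIDR replicate 2 or without FL replicate 1 (adjusted p = 0.104 and 0.0666). The KDM4B, KDM6A and KDM6B values were -0.03, 0.01 and 0.09 and did not pass, while with ERCC scaling all 3 passed as lower, at -0.21, -0.20 and -0.29 (adjusted p = 0.00369, 0.00887 and 4.1e-05). Kdm1a overlaps Luzp1 on the other strand and the gene model Gm12987 on its own.

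Kdm2a and Kdm2b encode the CXXC-domain H3K36 demethylases, and they did not move alike. Kdm2a (chromosome 19, 4364447 to 4448313, minus strand) had 152 and 151 CPM in KDM4A delIDR libraries, against 233 and 230 CPM in KDM4A FL libraries. Its levels with KDM4B were 212 and 217 CPM for delIDR and 271 and 261 CPM for FL. With KDM6A they were 294 and 291 CPM for delIDR and 248 and 237 CPM for FL, and with KDM6B 158 and 156 CPM for delIDR and 178 and 180 CPM for FL. The delIDR and FL libraries did not overlap in any of the 4 comparisons. Kdm2a fell by 0.61 ± 0.04 in KDM4A delIDR, by 0.31 ± 0.04 in KDM4B delIDR and by 0.19 ± 0.04 in KDM6B delIDR on the log2 scale (SE, adjusted p = 1.6e-16, 1.6e-08 and 2.7e-04). It rose by 0.27 ± 0.04 in KDM6A delIDR (adjusted p = 1.2e-06), a value that was 0.05 with ERCC scaling (adjusted p = 0.591). The KDM4A effect lay 0.30 below the KDM4B effect (-0.30 ± 0.05, adjusted p = 2.8e-05), and the KDM6A effect 0.46 ± 0.05 above the KDM6B effect (adjusted p = 2.9e-08).

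Kdm2b (chromosome 5, 123008728 to 123127886, minus strand) differed most with KDM6A. It had 207 and 193 CPM in KDM6A delIDR libraries, against 149 and 142 CPM in KDM6A FL libraries, which were the highest and the lowest of the 8 groups. The rise was 0.46 ± 0.05 (adjusted p = 1.9e-09) and 0.24 with ERCC scaling (adjusted p = 0.00206), where it was the 1 member that still rose. With KDM4B it had 172 and 159 CPM in delIDR libraries and 189 and 191 CPM in FL libraries, a fall of 0.20 on the log2 scale (SE 0.05, adjusted p = 6.2e-04). That call was lost without KDM4B delIDR replicate 2 (-0.14, adjusted p = 0.0513). The KDM4A value was 0.07 (adjusted p = 0.22), with 184 and 175 CPM in delIDR libraries and 176 and 166 CPM in FL libraries, and it turned to -0.58 with ERCC scaling (adjusted p = 5.8e-13). The KDM6B value was 0.07 and did not pass, and it turned to -0.31 with ERCC scaling (adjusted p = 2.4e-05). The KDM6A effect was 0.39 ± 0.07 above the KDM6B effect (adjusted p = 2.5e-05). The KDM4A effect was 0.27 ± 0.07 above the KDM4B effect (adjusted p = 0.00129), and -0.19 with ERCC scaling (adjusted p = 0.0699). Kdm2b overlaps Rnf34 and A930024E05Rik on the other strand and the gene models Gm43411 and Gm44574 on its own.

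Of the KDM3 genes, which encode H3K9 demethylases, Kdm3a showed the largest single change of the 9 members in the KDM4B comparison. Kdm3a (chromosome 6, 71565956 to 71609974, minus strand) is known for its part in spermatogenesis and in sex determination in mice. It had 380 and 373 CPM in KDM4B delIDR libraries, against 607 and 604 CPM in KDM4B FL libraries. These were the lowest and the highest group of the 8. Kdm3a fell by 0.68 ± 0.03 on the log2 scale in KDM4B delIDR (SE, adjusted p = 4.2e-19). With KDM6A it had 430 and 415 CPM in delIDR libraries and 486 and 471 CPM in FL libraries, a fall of 0.18 (SE 0.03, adjusted p = 1.2e-04). With KDM4A it had 555 and 543 CPM in delIDR libraries and 512 and 509 CPM in FL libraries. That rise of 0.11 ± 0.03 (adjusted p = 0.00813) turned to -0.55 with ERCC scaling, and without delIDR replicate 1, without FL replicate 1 or without the count filter it did not pass (adjusted p = 0.164, 0.0596 and 0.0786). The KDM6B value was -0.07 and did not pass (adjusted p = 0.126). The KDM4A and KDM4B effects differed by 0.79 ± 0.05 (adjusted p = 6.3e-16), and by 0.32 with ERCC scaling (adjusted p = 7.6e-04), which was the largest difference between paralogues among the members with TMM scaling.

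Kdm3b (chromosome 18, 34910100 to 34971713, plus strand), a close paralogue of Kdm3a, kept within 234 and 289 CPM over the 16 libraries. It had 245 and 238 CPM in KDM4A delIDR libraries, against 285 and 275 CPM in KDM4A FL libraries, a fall of 0.21 on the log2 scale (SE 0.04, adjusted p = 1.3e-05). In KDM4B delIDR the value was -0.13 ± 0.04 (adjusted p = 0.00744), which did not pass without delIDR replicate 2, FL replicate 1 or FL replicate 2 (adjusted p = 0.12, 0.0554 and 0.0873). With KDM6A it had 289 and 289 CPM in delIDR libraries and 277 and 260 CPM in FL libraries, which did not overlap. The value, 0.10 ± 0.04, did not pass (adjusted p = 0.0553), but passed in DESeq2 (adjusted p = 0.0151), and it turned to -0.11 with ERCC scaling (adjusted p = 0.188). The KDM6B value was 0.04 and did not pass, and it turned to -0.34 with ERCC scaling (adjusted p = 1.7e-06). Jmjd1c (chromosome 10, 66931904 to 67092105, plus strand), the third member of the family, had 321 to 392 CPM over the 16 libraries, the smallest relative range of the 9. In KDM6B delIDR libraries it had 321 and 333 CPM, against 364 and 357 CPM in KDM6B FL libraries, a fall of 0.14 (SE 0.04, adjusted p = 0.00416) that was lost without delIDR replicate 1 (adjusted p = 0.119). Its rise of 0.12 ± 0.04 in KDM4A delIDR, with 379 and 382 CPM against 349 and 350 CPM in KDM4A FL (adjusted p = 0.00465), turned to -0.53 with ERCC scaling and was lost without FL replicate 1 (adjusted p = 0.0537). The KDM4B and KDM6A values of Jmjd1c were 0.03 and 0.05 and did not pass, and they turned to -0.16 and -0.17 with ERCC scaling (adjusted p = 0.023 and 0.0251). Jmjd1c overlaps Reep3 and Gm26359 on the other strand.

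The KDM5 genes encode demethylases of highly methylated H3K4, and in the KDM4A comparison the pair went opposite ways with TMM scaling, while both lay below 0 with ERCC scaling. Kdm5b (chromosome 1, 134487909 to 134563023, plus strand) was the most highly expressed of the 9 genes. It had 798 and 783 CPM in KDM4A delIDR libraries, against 1238 and 1222 CPM in KDM4A FL libraries. With KDM4B it had 926 and 920 CPM in delIDR libraries, against 1129 and 1099 CPM in FL libraries. With KDM6A it had 1424 and 1412 CPM in delIDR libraries, against 1214 and 1194 CPM in FL libraries. With KDM6B it had 770 and 766 CPM in delIDR libraries, against 842 and 818 CPM in FL libraries. As for Kdm2a, the delIDR libraries were below the FL libraries for KDM4A, KDM4B and KDM6B and above them for KDM6A. Kdm5b fell by 0.64 ± 0.03 in KDM4A delIDR (adjusted p = 1.7e-20), by 0.27 ± 0.03 in KDM4B delIDR (adjusted p = 9.6e-10) and by 0.11 ± 0.03 in KDM6B delIDR (adjusted p = 0.00448). The last of these did not pass without KDM6B FL replicate 1 (adjusted p = 0.0546). Kdm5b rose by 0.24 ± 0.03 in KDM6A delIDR (adjusted p = 9.7e-08), and there the ERCC-scaled value was 0.02 (adjusted p = 0.847). Both tests between paralogues passed, at -0.37 ± 0.04 for KDM4A minus KDM4B and 0.35 ± 0.04 for KDM6A minus KDM6B (adjusted p = 4.2e-09 and 3.8e-08).

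Kdm5a (chromosome 6, 120341085 to 120421535, plus strand), first described as a partner of the retinoblastoma protein, had 470 and 473 CPM in KDM4A delIDR libraries, against 399 and 404 CPM in KDM4A FL libraries. The KDM4A delIDR libraries held its highest counts. With KDM4B it had 338 and 346 CPM in delIDR libraries, its lowest group, against 417 and 420 CPM in FL libraries. With KDM6A it had 359 and 359 CPM in delIDR libraries and 398 and 400 CPM in FL libraries. Its rise of 0.23 ± 0.03 in KDM4A delIDR (adjusted p = 3.4e-07) turned to -0.42 with ERCC scaling, 0.28 above the median of all genes on that scale. It fell by 0.29 ± 0.03 in KDM4B delIDR and by 0.15 ± 0.03 in KDM6A delIDR (adjusted p = 7.4e-09 and 0.00115). The KDM6B value was -0.05 and did not pass. The KDM4A effect was 0.52 ± 0.05 above the KDM4B effect (adjusted p = 4.7e-11), and 0.06 above it with ERCC scaling (adjusted p = 0.625). Kdm5a overlaps Ccdc77 and Gm24592 on the other strand.

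Of the 9 members, 6 passed the test of the KDM4A effect against the KDM4B effect, 4 higher and 2 lower, where 31.1% of all genes passed (15.4% higher and 15.6% lower). For the KDM6A effect against the KDM6B effect 4 passed, all higher, where 21.8% of all genes did (11% higher and 10.7% lower). The fourth of these, beside Kdm2a, Kdm2b and Kdm5b, was Jmjd1c, whose effects differed by 0.19 ± 0.05 (adjusted p = 0.00663), a call that was lost without KDM6B delIDR replicate 1 or KDM6A FL replicate 2 (adjusted p = 0.057 and 0.0727).

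The full-length groups show how the 9 genes differed between expressed proteins that kept their disordered region. Between KDM6A FL and KDM6B FL 7 of the 9 members passed, 4 higher in KDM6A FL and 3 lower, where 50.7% of all genes passed (25.7% higher and 25% lower). Kdm5b was 0.54 ± 0.03 and Kdm2a 0.44 ± 0.04 higher in KDM6A FL (adjusted p = 2.9e-18 and 1.6e-12). Kdm1b was -0.27, Kdm2b -0.26 and Kdm1a -0.16 relative to KDM6B FL with TMM scaling, and all 3 turned to 0.66 to 0.77 with ERCC scaling, on which the median of all genes was 1.00. The calls of Kdm3b and Kdm3a, 0.11 higher each, were lost without KDM6A FL replicate 1 (adjusted p = 0.269 and 0.094), that of Kdm3b also without KDM6B FL replicate 1 and that of Kdm3a without KDM6B FL replicate 2 (adjusted p = 0.0751 and 0.0524). Between KDM4A FL and KDM4B FL 6 members passed, 3 higher and 3 lower, where 24.3% of all genes did (13.5% higher and 10.8% lower). Kdm3a at -0.25 ± 0.03 (adjusted p = 3.1e-07) was the largest. The higher 3, Kdm1a, Kdm5b and Kdm3b, lay at 0.18, 0.14 and 0.10 and turned to -0.27, -0.31 and -0.35 with ERCC scaling, on which the median of all genes was -0.45. The call of Kdm3b was lost without any 1 of 10 libraries and in DESeq2, and that of Kdm2b without KDM4A FL replicate 2 or KDM4B FL replicate 2 (adjusted p = 0.17 and 0.0951). Set against the KDM4 pair, the KDM6 pair of full-length groups had 7 members past the threshold, 2 higher and 5 lower, where 44.6% of all genes passed (22.5% higher and 22.2% lower). The largest were Kdm3a at -0.27, Kdm2a at -0.25 and Kdm5b at -0.23 (SE 0.02, 0.03 and 0.02, adjusted p = 2.9e-12, 4.9e-10 and 7.4e-12), and the higher 2, Kdm1b at 0.12 and Kdm1a at 0.11, turned to -0.35 and -0.37 with ERCC scaling. Among the 5 lower, the call of Kdm5a was lost without any 1 of 13 of the 16 libraries, where its value was -0.06 to -0.04, and without the count filter (adjusted p = 0.0671). The call of Kdm1b was lost without KDM6A FL replicate 1 (adjusted p = 0.0507).

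Reads from repeat copies inside introns gave a second readout of the same genes, from outside their exons. Each gene's reads were summed over the copies that lay within that gene alone and touched no exon, from 41 copies in Kdm3a to 313 in Kdm2b. The counts were put on the library sizes of the gene table. On that scale intronic repeat reads as a whole were fewer in KDM4A delIDR and KDM6B delIDR: the median log2 fold change of 18163 genes was -0.23 for KDM4A, -0.05 for KDM4B, 0.02 for KDM6A and -0.23 for KDM6B.

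In the KDM4A comparison all 9 members passed on intronic repeat reads, 1 higher and 8 lower, where 55.8% of genes passed (18.3% higher and 37.4% lower). For KDM4B 8 were lower and 1 did not pass, against 41.5% of genes (17.1% higher and 24.5% lower). For KDM6A 4 were higher and 1 lower, against 19.4% of genes (11.1% higher and 8.29% lower). For KDM6B all 9 were lower, against 40.7% of genes (5.21% higher and 35.5% lower). The intronic table was also scaled by its own TMM, which took out much of the shift of the median, though not all of it for KDM4A. Then 1 member was higher and 7 lower for KDM4A, 7 lower for KDM4B, 4 higher and 2 lower for KDM6A, and 6 lower for KDM6B. Of all genes on that scale 25.7% were higher and 29.7% lower for KDM4A, 20.6% and 22.4% for KDM4B, 10.4% and 10.4% for KDM6A, and 11.3% and 19.6% for KDM6B. Without KDM4B FL replicate 2, 5 members passed for KDM4B. Without KDM6A FL replicate 1, 3 members and 2286 genes passed for KDM6A, against 5 members and 3527 genes with it.

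Kdm5b had the largest intronic change of the 9 in the KDM4A comparison. It had 229 and 235 CPM of intronic repeat reads in KDM4A delIDR libraries, against 516 and 519 in KDM4A FL libraries. This fall of 1.16 on the log2 scale (SE 0.03, adjusted p = 1.3e-34) was larger than the 0.64 seen in its gene reads, and 0.98 with the intronic TMM. In KDM4B delIDR and KDM6B delIDR it fell by 0.42 and 0.46 (SE 0.03 each, adjusted p = 6.0e-16 and 3.0e-17). In KDM6A delIDR it rose by 0.21 ± 0.03 (adjusted p = 1.9e-06), a value that turned to -0.01 with ERCC scaling. Kdm3a had 59.5 and 63.3 CPM of intronic repeat reads in KDM4B delIDR libraries, against 96.4 and 92.1 in KDM4B FL libraries. Its fall of 0.62 (SE 0.05, adjusted p = 3.7e-14) was close in size to the 0.68 of its gene reads. Kdm1b had 25.7 and 29.4 in KDM4A delIDR libraries, against 23.2 and 21.7 in KDM4A FL libraries. It was the 1 member that rose there (0.29 ± 0.08, adjusted p = 0.00134), which turned to -0.36 with ERCC scaling and did not pass without delIDR replicate 2 (adjusted p = 0.0574).

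Several genes had fewer intronic repeat reads where their gene reads rose, did not pass or fell by less. Kdm5a in KDM4A delIDR had a gene-read value of 0.23 and an intronic value of -0.41 ± 0.05 (adjusted p = 2.7e-09), and Jmjd1c had 0.12 and -0.60 ± 0.04 (adjusted p = 2.0e-18). With the intronic TMM these were still -0.24 and -0.43. In KDM6B delIDR Jmjd1c had 91.8 and 91.1 CPM of intronic repeat reads, against 156 and 145 in KDM6B FL. Its intronic fall of 0.72 (SE 0.04, adjusted p = 1.2e-20) was the largest of the 9 in that comparison, beside a gene-read value of -0.14. The difference between the gene-read value and the intronic value of a gene was not itself tested. In bulk libraries fewer cells expressing a gene and less RNA per cell cannot be told apart.

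**Figure D2:**
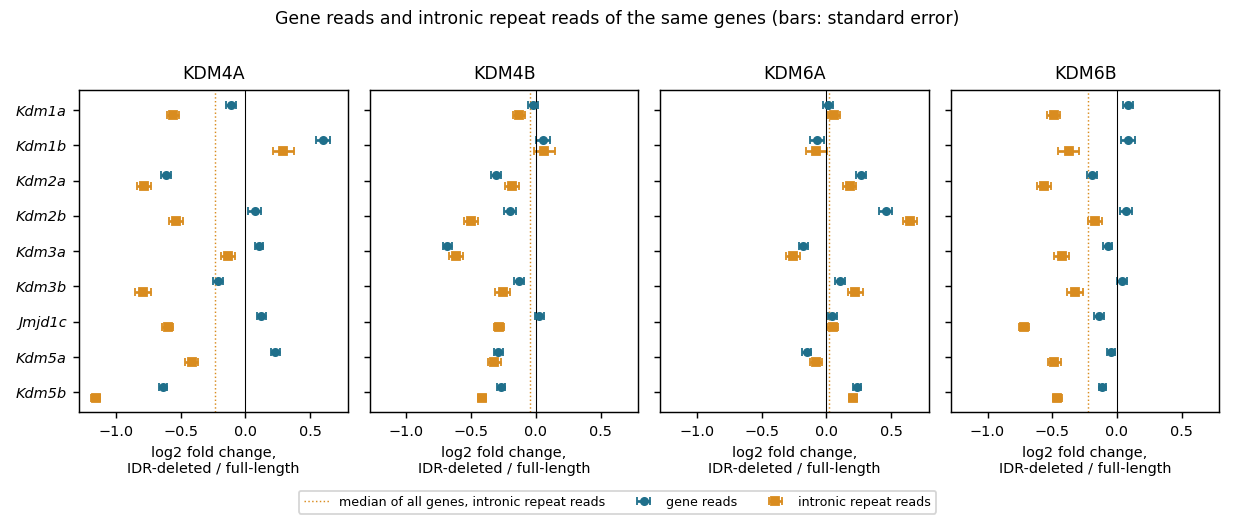
Log2 fold change, IDR-deleted over full-length, of gene reads (circles) and intronic repeat reads (squares) of the 9 genes in the 4 comparisons, with standard errors as bars and the median intronic value of all genes as a dotted line. For KDM4A the intronic value of each member lies below its gene-read value, and for KDM6A the 2 readouts of each member lie closer together than for KDM4A.

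The same reads were followed along each gene. In the KDM4A pair Kdm1b, Kdm2b and Kdm3a had segments of both signs. The ratios of Kdm3b were all negative but ranged widely, at -0.90, -0.07, -0.47, -1.11 and -1.67 (log2, start to end). Those of Kdm1b lay between 0.67 in the first segment and -0.23 in the last. In that last segment the Kdm1b libraries overlapped, at 2.91 and 4.30 CPM per kilobase of repeat in KDM4A delIDR and 3.38 and 5.10 in KDM4A FL. Kdm2b was picked from its outcome and is given in full. Its last segment, which lies beyond an inner start, differed in sign from the others in the KDM4A pair. Its span of about 119 kb was cut into 5 equal segments, and the intronic repeat reads of each were expressed as CPM per kilobase of repeat. In the first segment KDM4A delIDR libraries had 0.252 and 0.259, against 0.446 and 0.550 in KDM4A FL libraries. In the fourth, 71.5 to 95.3 kb from the start, they had 1.79 and 1.74, against 3.72 and 3.75. In the last they had 4.76 and 4.80, against 3.97 and 4.17. Thus both KDM4A delIDR libraries lay below both FL libraries in the first 4 segments (log2 ratio of the means -0.96, -0.57, -1.18 and -1.08) and above them in the last (0.23). KDM4B delIDR lay below FL in all 5 (-0.94, -0.62, -0.49, -0.59 and -0.25), and KDM6A delIDR above FL in all 5 (0.80, 0.58, 0.75, 0.73 and 0.46). The KDM6B ratios were of both signs too (-0.22, 0.07, -0.49, -0.18 and -0.10). Kdm5b, by contrast, had ratios of -1.18, -0.97, -1.06, -1.23 and -1.19 with KDM4A, much the same from start to end. These profiles are descriptions of 2 libraries a group and carry no test, and strand was ignored.

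**Figure D3:**
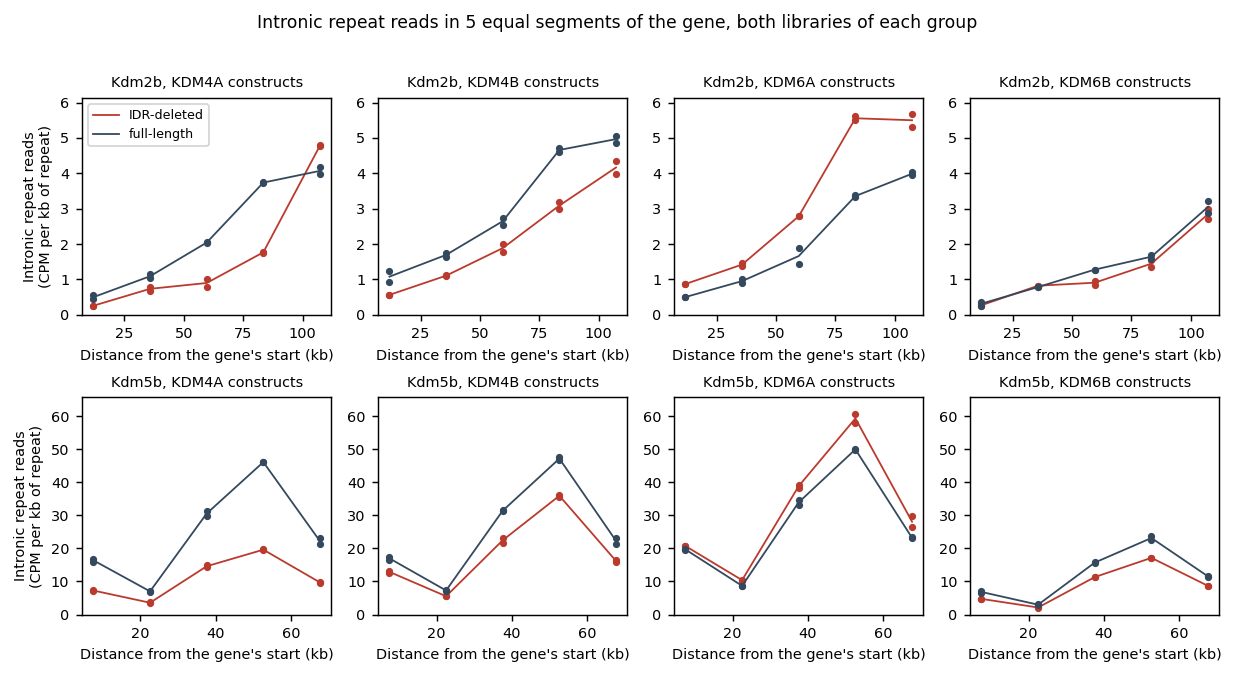
Intronic repeat reads in CPM per kilobase of repeat in 5 equal segments of Kdm2b (top) and Kdm5b (bottom), against the distance of the middle of each segment from the gene's start in kb, for the 4 pairs of groups. Points are libraries and lines group means. In the KDM4A pair the lines of Kdm2b cross before the last segment, where the delIDR libraries reach 4.76 and 4.80, while those of Kdm5b stay apart.

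Kdm2b has an inner start, known to give a shorter protein that keeps the CXXC domain and lacks the JmjC domain. In RefSeq on GRCm38.p6 it lies 88732 bases from the outermost start, which by distance falls in the fourth segment. The 250 bases before each start, chr5:122989100-122989349 and chr5:122900368-122900617, both on the minus strand, are shown because the last segment, beyond the inner start, differed in sign from the others in the KDM4A pair. Beside them stand the same windows of Kdm5b, chr1:134559928-134560177 on the plus strand, and of Kdm3a, chr6:71632918-71633167 on the minus strand, the genes with the largest falls in KDM4A delIDR and KDM4B delIDR. RefSeq promoters were matched for 6 of the 9 members. Capitals mark any match, on either strand, to ACGTG (the core of hypoxia elements, also found in some E-boxes), CCAAT (bound by NF-Y) or GGGCGG (bound by Sp1 and its relatives).
Kdm2b outermost start: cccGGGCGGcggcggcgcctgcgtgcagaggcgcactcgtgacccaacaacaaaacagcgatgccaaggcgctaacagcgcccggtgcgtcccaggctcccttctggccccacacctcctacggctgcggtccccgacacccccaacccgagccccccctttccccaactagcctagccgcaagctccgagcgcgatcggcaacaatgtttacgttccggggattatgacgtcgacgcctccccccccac
Kdm2b inner start: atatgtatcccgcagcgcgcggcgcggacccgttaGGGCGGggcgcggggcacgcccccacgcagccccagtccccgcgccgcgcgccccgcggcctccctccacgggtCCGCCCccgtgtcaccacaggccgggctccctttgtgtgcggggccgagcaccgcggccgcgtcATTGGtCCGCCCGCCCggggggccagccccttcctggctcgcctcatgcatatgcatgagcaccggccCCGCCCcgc
Kdm5b start: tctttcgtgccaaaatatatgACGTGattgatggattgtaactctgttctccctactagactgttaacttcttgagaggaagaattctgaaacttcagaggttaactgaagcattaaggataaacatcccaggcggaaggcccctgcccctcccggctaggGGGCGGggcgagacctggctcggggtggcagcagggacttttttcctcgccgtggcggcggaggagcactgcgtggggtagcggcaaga
Kdm3a start: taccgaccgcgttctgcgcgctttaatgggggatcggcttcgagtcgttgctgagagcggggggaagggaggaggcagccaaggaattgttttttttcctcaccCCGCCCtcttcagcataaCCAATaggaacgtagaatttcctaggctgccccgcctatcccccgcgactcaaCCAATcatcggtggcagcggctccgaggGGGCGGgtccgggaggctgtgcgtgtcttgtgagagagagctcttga
The window of the Kdm2b outermost start held 1 GGGCGG, and that of the inner start 5 GGGCGG and 1 CCAAT, where 2 of the GGGCGG overlap. Kdm5b held 1 ACGTG and 1 GGGCGG, and Kdm3a 2 CCAAT and 2 GGGCGG. Among 27025 genes 16.5% held ACGTG, 34.5% CCAAT and 33% GGGCGG in a window of the same length. A match is a run of letters, not a bound site.

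Across the 16 libraries some of the 9 genes kept step. Log2 CPM of Kdm2a and Kdm5b had a Pearson r of 0.94, that of Kdm3a and Kdm5a 0.86, and that of Kdm1b and Kdm2a -0.92. These are descriptions over 8 groups of 2 libraries, in which both libraries of a group share a construct, and they carry no p. Kdm2a and Kdm5b were also split by the intronic share of the libraries, without following its order throughout. Kdm5b averaged 1230 CPM in KDM4A FL and 1204 CPM in KDM6A FL, where the share was higher. Intronic repeat reads per 100 gene reads averaged 36.5 in KDM4A delIDR and 50.6 in KDM4A FL, 53.0 in KDM4B delIDR and 58.3 in KDM4B FL, 61.0 in KDM6A delIDR and 59.4 in KDM6A FL, and 26.1 in KDM6B delIDR and 34.7 in KDM6B FL. The 6 libraries under 40 held the 6 lowest values of Kdm2a and of Kdm5b, and the 6 highest of Kdm1b, while Kdm3a had high and low values at every share. The part of this share in the results was not tested.

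**Figure D4:**
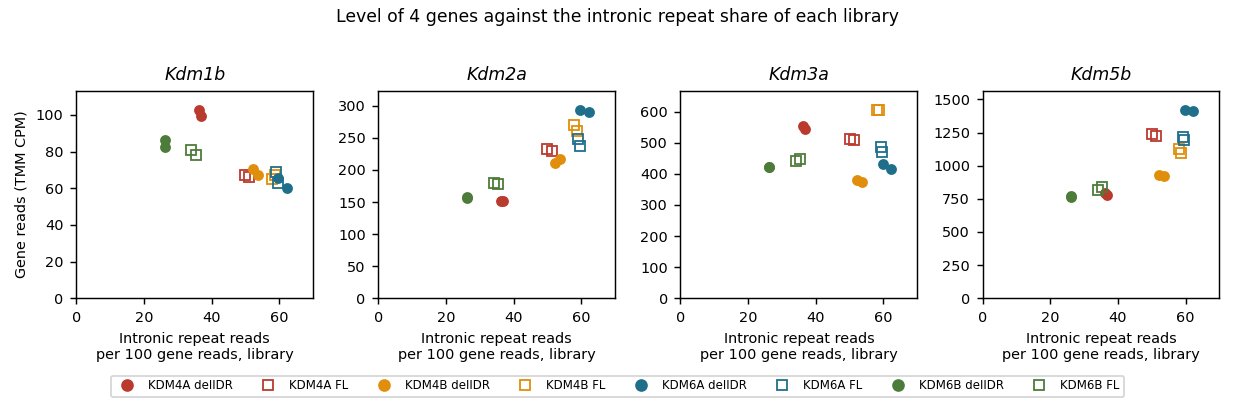
Gene reads of Kdm1b, Kdm2a, Kdm3a and Kdm5b in CPM against the intronic repeat reads per 100 gene reads of the same library, on linear axes. Each point is 1 of 16 libraries, filled for IDR-deleted and open for full-length. Kdm2a and Kdm5b are low and Kdm1b is high in the 6 libraries under 40, and Kdm3a shows no such order.

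For each member the genes most like it over the 16 libraries were named from 9346 with a symbol and at least 10 CPM on average. Likest to Kdm2a were Map3k12 and Pigk (Pearson r of log2 CPM 0.99 each), to Kdm1b Espl1 and Smtn (0.99 and 0.98), and to Kdm5b Taf1d and Tyw3 (0.98 and 0.97). Kdm5a was likest to Wnk1 (0.96), Kdm3a to Gpr19 (0.95), Kdm1a to Hist1h4i (0.95), Kdm3b to Cog8 (0.94), Kdm2b to the H3K4 methyltransferase gene Kmt2b (0.93) and Jmjd1c to Zcchc4 (0.92). With so many genes searched over 8 groups, high values arise readily, and nothing is read from them.

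Genes around the members were followed in lists. Of 26 partner genes, which encode subunits of CoREST, of the Polycomb complex of KDM2B and of the Sin3 complexes of KDM5, 19 rose and 4 fell in KDM4A delIDR with TMM scaling, with a median of 0.23 against -0.05 for all genes, of which 24.6% rose and 25.9% fell. With ERCC scaling 1 rose and 19 fell, against 4.71% and 57.2% of all genes. Zmym3, of the CoREST complex, had 148 and 139 CPM in KDM4A delIDR libraries, against 89.5 and 87.2 CPM in KDM4A FL libraries (0.70 ± 0.05, adjusted p = 2.3e-15, and 0.05 with ERCC scaling). Sin3b, a Sin3 scaffold, had 58.7 and 59.6 CPM in KDM4A delIDR libraries, against 88.3 and 85.3 CPM in KDM4A FL libraries (-0.55 ± 0.05, adjusted p = 4.2e-11). For KDM4B 6 rose and 6 fell, where 18.6% and 17.6% of all genes did. For KDM6A 4 rose and 4 fell, against 8.3% and 8.65% of all genes, and for KDM6B 3 and 4, against 9.89% and 10.7%. Bcor, the corepressor in the KDM2B complex, rose by 0.65 ± 0.05 in KDM4B delIDR, and Rybp, another subunit, fell by 0.61 ± 0.05 (adjusted p = 1.7e-12 and 8.5e-13). Rcor2, a CoREST protein, rose by 0.55 ± 0.05 in KDM6A delIDR (adjusted p = 7.3e-10).

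Writers of the marks that the members remove were counted in the same way. The shares of all genes to set these counts against were 24.6% higher and 25.9% lower for KDM4A, 18.6% and 17.6% for KDM4B, 8.3% and 8.65% for KDM6A, and 9.89% and 10.7% for KDM6B. Of 12 genes for H3K4 methyltransferases and their subunits, 5 rose and 3 fell for KDM4A, 2 and 6 for KDM4B, 7 and 1 for KDM6A, and 3 and 3 for KDM6B. Setd1b, one of these methyltransferases, had 19.8 and 19.7 CPM in KDM4A delIDR libraries, against 32.5 and 33.4 CPM in KDM4A FL libraries, and it rose by 0.75 ± 0.07 in KDM6A delIDR (adjusted p = 7.6e-10). Of 6 H3K36 methyltransferase genes, 2 rose and 2 fell for KDM4A, 1 and 2 for KDM4B, 2 and 1 for KDM6A, and 1 and 3 for KDM6B. Nsd1, which writes H3K36 methylation, had 754 and 749 CPM in KDM4A delIDR libraries, against 1394 and 1383 CPM in KDM4A FL libraries, a fall of 0.89 (SE 0.03, adjusted p = 6.0e-25). Of 7 H3K9 methyltransferase genes and partners, 1 rose and 4 fell for KDM4A, 5 fell for KDM4B, 2 rose for KDM6A, and 1 rose and 1 fell for KDM6B. Suv39h1, which writes H3K9 methylation in heterochromatin, had 18.4 and 19.7 CPM in KDM4A delIDR libraries, against 42.9 and 41.3 CPM in KDM4A FL libraries, a fall of 1.14 (SE 0.07, adjusted p = 1.8e-17). Among the 17 other histone demethylase genes, 7 rose and 4 fell for KDM4A, 3 and 4 for KDM4B, 4 and 3 for KDM6A, and 1 and 0 for KDM6B. These 17 include Kdm4a, Kdm4b, Kdm6a and Kdm6b, the genes whose proteins were expressed. Kdm4a was 1 of the 7 that rose for KDM4A, and the 1 call for KDM6B was Kdm6b itself. Both turned below 0 with ERCC scaling. Uty fell by 1.36 ± 0.08 in KDM4A delIDR (adjusted p = 2.7e-16), and Phf2 rose there by 0.69 ± 0.07 (adjusted p = 2.2e-11), a value of 0.04 with ERCC scaling that did not pass. With ERCC scaling at most 1 gene of each of these 4 lists rose in any of the 4 comparisons.

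Summed levels of markers of other cells moved with some of these comparisons. Single genes made up much of some sums. Over the 16 libraries Tfap2c had 7.62 to 45.8 CPM among the trophectoderm markers, and Cdx2 at most 0.21 CPM. Among the fibroblast markers Pdgfrb had 4.59 to 23.8 CPM, and Col3a1 at most 0.23 CPM. Whether the markers of a list moved together was not tested. The summed level of the 6 trophectoderm markers was 70.2 to 73.0 CPM in KDM4A delIDR and 30.2 to 30.9 CPM in KDM4A FL, and that of the 6 primitive endoderm markers 30.5 to 31.2 CPM in KDM4A delIDR and 10.3 to 10.5 CPM in KDM4A FL. With KDM4B the trophectoderm sum was 35.2 to 35.7 CPM in delIDR and 20.8 to 21.5 CPM in FL, and the primitive endoderm sum 13.8 to 14.3 CPM in delIDR and 7.39 to 8.13 CPM in FL. With KDM6A and KDM6B both sums differed less. The sum of the 6 fibroblast markers was 30.3 to 32.1 CPM in KDM4A delIDR and 15.1 to 17.3 CPM in KDM4A FL, and 15.8 to 17.4 CPM in KDM4B delIDR and 10.5 to 11.1 CPM in KDM4B FL. With KDM6A it was lower in delIDR, at 8.90 to 9.94 CPM, than in FL, at 15.7 to 16.3 CPM, and with KDM6B it was 25.2 to 25.7 CPM in delIDR and 23.1 to 23.2 CPM in FL. The sum of the 5 neural markers was 31.4 to 33.2 CPM in KDM4A delIDR and 25.7 to 26.6 CPM in KDM4A FL, and 27.8 to 29.8 CPM in KDM4B delIDR and 35.4 to 35.7 CPM in KDM4B FL. With KDM6B the neural sum was 38.0 to 39.1 CPM in delIDR and 30.5 CPM in both FL libraries. With KDM6A it was 24.1 to 24.6 CPM in delIDR and 24.1 to 25.0 CPM in FL. The 6 genes of the 2-cell-like list summed to 59.6 CPM in both KDM4A delIDR libraries, against 213 to 230 CPM in KDM4A FL, and to 83.0 to 88.8 CPM in KDM4B delIDR, against 230 to 240 CPM in KDM4B FL. With KDM6A the 2-cell-like sum was 128 to 129 CPM in delIDR and 151 to 159 CPM in FL, and with KDM6B 42.1 to 42.9 CPM in delIDR and 38.2 to 40.0 CPM in FL. The embryonic stem cell sum was 2315 to 2377 CPM in KDM4A delIDR and 2288 to 2394 CPM in KDM4A FL, and 1790 to 1867 CPM in KDM4B delIDR and 2159 to 2239 CPM in KDM4B FL. With KDM6A it was 2156 to 2275 CPM in delIDR and 2042 to 2112 CPM in FL, and with KDM6B 2678 to 2692 CPM and 2563 to 2615 CPM. Within that list Pou5f1 had 52.9 to 233 CPM and Dppa5a 50.4 to 372 CPM over the 16 libraries. The part of the marker levels in the results for the 9 genes was not tested.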

How the data were processed

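Raw read counts per gene and per repeat copy came from featureCounts 2.0.3, which the authors ran, per the file headers, on HISAT2 alignments to GRCm39 with spike-in sequences, at a mapping quality of at least 30, counting each read of a pair and ignoring strand. Reads with several places or features went to none. Per the labels, rRNA was depleted and a stranded kit was used. The m6A controls named in the labels drew 0 reads, and the labels do not mention the 92 ERCC RNAs counted. Symbols came from GENCODE M21 (51948 genes), and sequences from RefSeq (GRCm38.p6).

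Counts were tested here with edgeR 4.0.16 in R 4.3.3: filterByExpr (minimum count 10), TMM, 1 robust quasi-likelihood fit of 8 group means to all 16 libraries (8 residual degrees of freedom) and Benjamini-Hochberg adjustment over all genes at 0.05. Standard errors were derived from each log2 fold change and its F statistic. With 2 libraries against 2, an exact permutation p cannot go below 0.33. Intronic repeat counts used the same model with the library sizes of the gene table. Libraries of a group correlated at 0.980 to 0.988 in log2 CPM, and none were duplicates within sampling noise (median chi-square per gene 1.25 to 1.70). Members and gene lists were chosen with earlier results of these data known. Beside all 9 members, up to 2 genes per list, direction and comparison were named by smallest p, and up to 2 most alike genes per member. Tested on simulated counts of 30105 genes for KDM4A delIDR minus FL, the fit recovered 38% of 100 genes changed by 0.5 and 59% of 100 changed by 1 on the log2 scale, with 1.02% false calls. In the data 50.5% of all genes passed in that comparison. These rates were therefore not measured for a change of that breadth, nor for the members alone. Alternatives were ERCC and median-ratio scaling, no filter, DESeq2 1.42.0, a replicate block, each library left out, a fit of 4 libraries per comparison and, chosen after seeing the data, TMM of the intronic table. Figures were drawn with matplotlib.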

Additional observations from a re-analysis of the deposited data

Results flagged for a closer look

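The effect of deleting the disordered region differed between paralogous constructs for several of the 9 genes, by the test of the difference itself in the edgeR fit. KDM4A and KDM4B effects (log2, KDM4A minus KDM4B) differed by 0.54 for Kdm1b, -0.30 for Kdm2a, 0.27 for Kdm2b, 0.79 for Kdm3a, 0.52 for Kdm5a and -0.37 for Kdm5b (adjusted p = 3.4e-07, 2.8e-05, 0.00129, 6.3e-16, 4.7e-11 and 4.2e-09). With ERCC scaling those of Kdm1b, Kdm2b and Kdm5a did not pass, and that of Kdm2b turned to -0.19. KDM6A and KDM6B effects (log2, KDM6A minus KDM6B) differed by 0.46 for Kdm2a, 0.39 for Kdm2b, 0.19 for Jmjd1c and 0.35 for Kdm5b (adjusted p = 2.9e-08, 2.5e-05, 0.00663 and 3.8e-08), and all 4 passed with ERCC scaling too. Each construct was seen in 2 libraries, and 31.1% and 21.8% of all genes passed the same tests.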

How the results depend on the processing

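DESeq2, median-ratio scaling, no count filter, the replicate block and the fit of 4 libraries kept every count of genes and of members within 1.5 times its value, and turned no sign of a gene. ERCC scaling, which measures against added RNA and so shifts whole comparisons, moved the KDM6B count to 13954 genes and 9 members and the count between KDM4A FL and KDM4B FL to 15616, and turned the sign of 47 of 183 gene values, each past the threshold under at least 1 of the 2 scalings. In KDM4A delIDR minus FL the turned values were Kdm1b -0.055, Kdm2b -0.58, Kdm3a -0.55, Jmjd1c -0.53, Kdm5a -0.42, Kdm4a -0.17, Hdac2 -0.18, Rbbp5 -0.022, Cxxc1 -0.34, Setd2 -0.22, Nsd3 -0.52 and Ehmt2 -0.12. For KDM4B they were Jmjd1c -0.16, Rbbp5 -0.052 and Setd2 -0.029. For KDM6A they were Kdm1a -0.20, Jmjd1c -0.17, Kdm5c -0.019, Ash1l -0.11 and Ehmt1 -0.068. For KDM6B they were Kdm1a -0.29, Kdm1b -0.29, Kdm2b -0.31, Kdm3b -0.34, Kdm6b -0.16, Rcor2 -0.092, Hdac2 -0.19, Dpy30 -0.024, Cxxc1 -0.10, Nsd3 -0.28 and Wiz -0.20. Between the KDM4A and KDM4B effects Kdm2b turned to -0.19 and Jmjd1c to -0.37. Between KDM4A FL and KDM4B FL the turned values were Kdm1a -0.27, Kdm1b -0.45, Kdm3b -0.35 and Kdm5b -0.31, between KDM6A FL and KDM6B FL Kdm1a 0.77, Kdm1b 0.66 and Kdm2b 0.66, and between the KDM6 and KDM4 pairs Kdm1a -0.37, Kdm1b -0.35 and Jmjd1c -0.45. Among gene reads of the members, values that passed under neither scaling turned for Kdm1b with KDM4B (-0.13), for Kdm3b with KDM6A (-0.11) and between the KDM6A and KDM6B effects for Kdm1a (0.091), Kdm1b (0.0053), Kdm3a (0.060) and Kdm5a (0.061). On intronic repeat reads Kdm1b turned to -0.36 for KDM4A, and Kdm2a, Jmjd1c and Kdm5b to -0.036, -0.17 and -0.0074 for KDM6A. The intronic TMM, chosen after seeing the data, turned Kdm3a to 0.035 for KDM4A and Kdm2b to 0.050 for KDM6B.

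Leaving out each of the 16 libraries in turn turned no sign of a named gene. The genes called ranged over 13589 to 15703 for KDM4A, 8908 to 11479 for KDM4B, 3484 to 5375 for KDM6A and 4078 to 6561 for KDM6B, and the members called over 5 to 8, 4 to 6, 5 to 6 and 2 to 3. On intronic repeat reads the members called ranged over 7 to 9, 5 to 8, 3 to 5 and 8 to 9, and the genes called for KDM6A over 2286 to 3622. Where an arm kept 1 library, it was assumed to vary like the other groups. Whether replicate numbers pair the libraries was not settled. Of 28 pairs of groups, 15 had a correlation of same-numbered deviations over 0.1 (lowest -0.003, median 0.10, highest 0.17). The main fit took no account of replicate numbers. With the replicate block 16057, 11908, 6055 and 7291 genes were called for KDM4A, KDM4B, KDM6A and KDM6B, and 8, 6, 6 and 3 members, Kdm3b being added for KDM6A at 0.10 (adjusted p = 0.0222). The block also added Jmjd1c between KDM4A FL and KDM4B FL (-0.092, adjusted p = 0.0297) and Kdm3b between the KDM6 and KDM4 pairs (-0.060, adjusted p = 0.037). How far depth or the number of libraries limits these calls was not tested. Calls that a single library ended included values as large as -0.20 on gene reads (Kdm2b with KDM4B) and 0.29 on intronic repeat reads (Kdm1b with KDM4A).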
